A study of Mus musculus with 16 samples.

Results

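The 10 genes described here encode serpins of clade A, the Serpina protease inhibitors that hepatocytes secrete into plasma: the antitrypsin genes Serpina1a, Serpina1b, Serpina1c, Serpina1d and Serpina1e, the antichymotrypsin-like genes Serpina3k, Serpina3m and Serpina3n, and Serpina6 and Serpina12. They were taken by name, and their probes were found through the RefSeq accession that each probe carries. Of the 10 genes, 9 had at least 1 probe, 13 probes in all, and all 9 were among the 15053 named genes tested. No probe carried an accession of Serpina1b, which therefore has no value. The cells were primary hepatocytes of male C57Bl/J mice in Williams Medium E, either left untreated or given SQ1 or pravastatin from 48 h after plating for a further 48 h. Doses were 100 µM for SQ1 and 30 µM for pravastatin per the labels. SQ1, or squalestatin 1, blocks squalene synthase; squalestatins act at far lower doses, so that its unit is uncertain. Pravastatin inhibits HMG-CoA reductase, near the start of the same mevalonate pathway. Each of 16 Agilent arrays held treated RNA in 1 dye and untreated control RNA in the other, 8 arrays for each drug. Replicates 1 to 4 of a drug had the drug RNA in the red dye, Alexa 647, and replicates 5 to 8 had it in the green dye, Alexa 555. The series calls the 8 cultures of a group biological replicates, and the control cultures of both drugs carry the same numbers. Whether 1 control RNA served on the arrays of both drugs is not stated.

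Serpins inhibit proteases by offering a reactive loop as bait: the protease cuts the loop, the serpin folds over, and the protease is trapped and destroyed. Liver is the main source of antitrypsin, which protects lung tissue from neutrophil elastase, and of antichymotrypsin, an acute phase protein. Mice carry several copies of both genes side by side, in a cluster on chromosome 12 where the human genome has fewer. Some members of the clade have left protease inhibition and carry hormones, among them corticosteroid-binding globulin (Serpina6).

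The promoters of the antitrypsin copies are shown first to illustrate how close the copies are. Probes read transcripts, so promoters do not show whether a probe reads several copies. RefSeq's promoter table (build GRCm38.p6) held the promoters of 7 of the 10 genes, from 250 bases before to 50 bases after the annotated start, and none for Serpina3k, Serpina3m and Serpina6. The stretches below are 120 bases of each of the 5 antitrypsin promoters, lined up on the longest run of bases that all share. All lie on the minus strand, at chr12:103863584-103863703 (Serpina1a), chr12:103738159-103738278 (Serpina1b), chr12:103904921-103905040 (Serpina1c), chr12:103773593-103773712 (Serpina1d) and chr12:103956919-103957038 (Serpina1e). Capitals mark the bases that differ from the Serpina1a stretch.
Serpina1a: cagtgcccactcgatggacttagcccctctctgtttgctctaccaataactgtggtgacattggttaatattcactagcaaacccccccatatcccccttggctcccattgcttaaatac
Serpina1b: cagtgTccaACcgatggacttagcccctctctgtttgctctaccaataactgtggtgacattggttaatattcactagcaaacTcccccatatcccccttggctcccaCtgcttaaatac
Serpina1c: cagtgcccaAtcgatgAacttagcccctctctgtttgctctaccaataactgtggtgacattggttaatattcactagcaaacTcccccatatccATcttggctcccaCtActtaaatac
Serpina1d: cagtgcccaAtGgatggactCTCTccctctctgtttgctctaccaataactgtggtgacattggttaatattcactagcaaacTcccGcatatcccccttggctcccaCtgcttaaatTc
Serpina1e: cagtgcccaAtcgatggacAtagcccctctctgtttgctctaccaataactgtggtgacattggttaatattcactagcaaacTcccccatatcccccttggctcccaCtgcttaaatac

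Over these 120 bases, 115 positions of Serpina1b, 113 of Serpina1c, 110 of Serpina1d and 116 of Serpina1e equalled those of Serpina1a. These counts include the run of 59 bases on which the stretches were lined up, which is the same in all 5 by choice. In the order shown, that run ends 1, 6, 7, -4 and 58 bases before the annotated start (-4 lies past it). The stretches thus lie at different distances from the start. The transcripts of these copies are also known to be close to identical and may hybridize to each other's probes. The files give no probe sequences, so the antitrypsin probes are read here as 7 overlapping views of the antitrypsin transcripts, those of Serpina1b included, and not as measurements of separate genes. Likewise the Serpina3 genes have close relatives in the cluster.

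Pravastatin lowered all 9 genes with a probe, against 35.8% of all genes tested that were called lower and 30.9% called higher with this drug. SQ1 lowered 6 of them, the 4 antitrypsin genes, Serpina3n and Serpina6, against 16.5% of all genes called lower and 15.7% called higher. In these counts the antitrypsin genes enter as 4 although their probes may read the same transcripts, so the counts are not of independent genes. With SQ1, Serpina3k, Serpina3m and Serpina12 did not pass the test. Called means an adjusted p under 0.05 from limma over all genes tested, and log2 ratios are of treated over control, with the dye effect removed where nothing else is said. The median of the 9 genes was -0.32 with SQ1 and -1.40 with pravastatin, and that of all genes tested was -0.0023 and -0.012. In this median too the antitrypsin genes enter as 4. With median centring the median of the 9 genes was -0.18 with SQ1 and -1.15 with pravastatin, and that of all genes 0.07 and 0.04. The pravastatin result held under every alternative tried, while the SQ1 call of the antitrypsin genes did not.

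**Figure D1:**
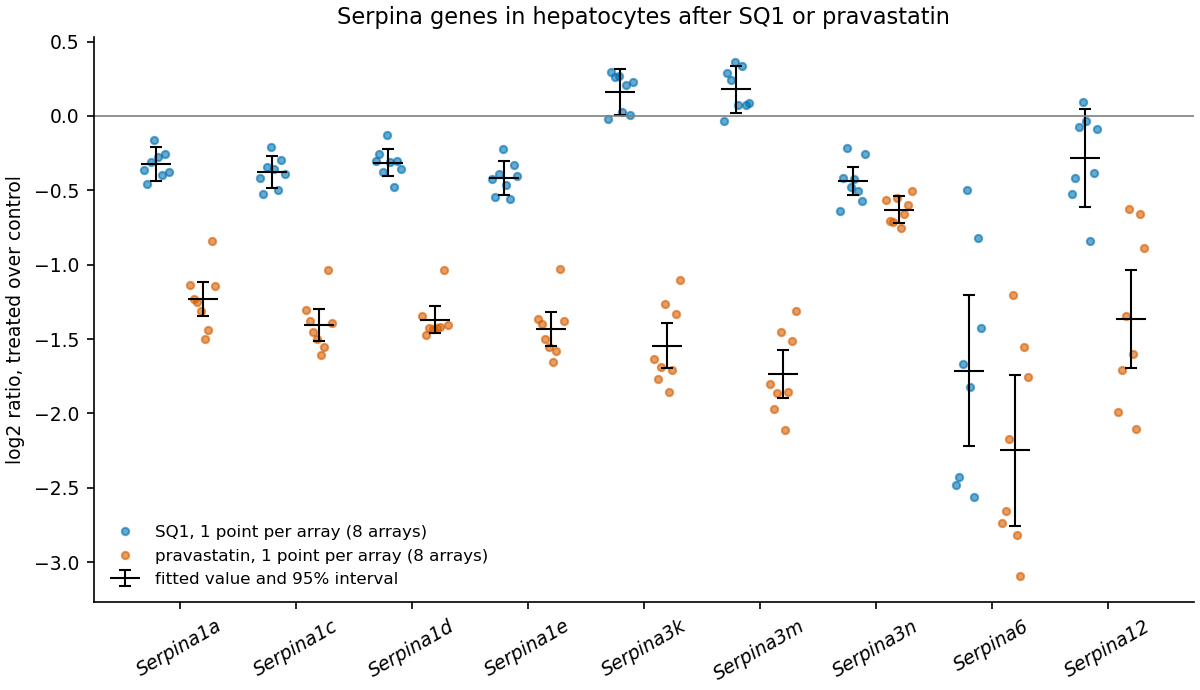
Log2 ratio of treated over control for the 9 measured genes; each point is 1 of 8 arrays per drug (SQ1 blue, pravastatin orange), and the black marks are the limma value with its 95% interval. The arrays of the drugs do not overlap for the antitrypsin genes, Serpina3k and Serpina3m, and do overlap for Serpina3n, Serpina6 and Serpina12.

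The antitrypsin genes, which encode the main circulating inhibitor of neutrophil elastase and its close copies, were lowered by pravastatin, with log2 ratios from -1.53 to -1.23 over their 7 probes. Serpina1a lay between -1.50 and -0.84 over the 8 pravastatin arrays, with a median of -1.24. Serpina1c lay between -1.61 and -1.04 with a median of -1.42, and Serpina1d between -1.47 and -1.03 with a median of -1.42. Serpina1e lay between -1.66 and -1.03 with a median of -1.45. All 8 arrays were below 0 for each of these 4 genes, whether or not the dye effect was removed. The fitted log2 ratios were -1.23 ± 0.05 for Serpina1a (2.35-fold lower, adjusted p = 1.3e-11), -1.40 ± 0.05 for Serpina1c, -1.37 ± 0.04 for Serpina1d and -1.43 ± 0.05 for Serpina1e (2.70-fold lower, adjusted p = 3.07e-12). The second probes of Serpina1a, Serpina1d and Serpina1e gave -1.53, -1.26 and -1.50.

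By the probe that stands for each of the 4 antitrypsin genes, SQ1 left them at 74.9 to 80.4% of the control level in the main fit. Over all their probes the log2 ratios with SQ1 ran from -0.44 to -0.24. The SQ1 arrays spanned -0.46 to -0.16 for Serpina1a, -0.53 to -0.21 for Serpina1c, -0.48 to -0.13 for Serpina1d and -0.56 to -0.22 for Serpina1e. Every SQ1 array was thus below 0 and above every pravastatin array at these 4 genes once the dye effect was removed. The fitted log2 ratios were -0.32 ± 0.05 for Serpina1a (adjusted p = 0.000265), -0.38 ± 0.05 for Serpina1c (adjusted p = 3.33e-05), -0.31 ± 0.04 for Serpina1d (adjusted p = 4.39e-05) and -0.42 ± 0.05 for Serpina1e (adjusted p = 2.61e-05). The second probes of Serpina1a, Serpina1d and Serpina1e gave -0.24, -0.29 and -0.44.

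The dye effect at these probes was about as large as the SQ1 ratio. This effect, red over green, was 0.51 for Serpina1a, 0.43 for Serpina1c, 0.36 for Serpina1d and 0.40 for Serpina1e. With that effect left in, the mean SQ1 ratio of Serpina1a was 0.19 on the 4 arrays with drug RNA in red and -0.84 on the 4 with drug RNA in green, and that of Serpina1e was 0.01 and -0.84. With the effect left in, 4 of 8 SQ1 arrays were below 0 for Serpina1a, 5 for Serpina1c, 5 for Serpina1d and 6 for Serpina1e. Both orientations had 4 arrays, so the dye effect cancels in the mean of a drug, and the fitted values were the same without a dye term. Without that term the spread between arrays took in the dye effect, and Serpina1a (adjusted p = 0.204), Serpina1c (0.0779) and Serpina1d (0.0842) were no longer called. With median centring in place of loess the log2 ratios of the 4 genes were -0.26 to -0.17 with adjusted p of 0.111 to 0.306, so that none was called. The probes of all 4 genes also sit at the bright end of the array, brighter than 99.4 to 99.98% of probes tested, although 0 of their spots were saturated. How far ratios are compressed there was not tested.

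**Figure D2:**
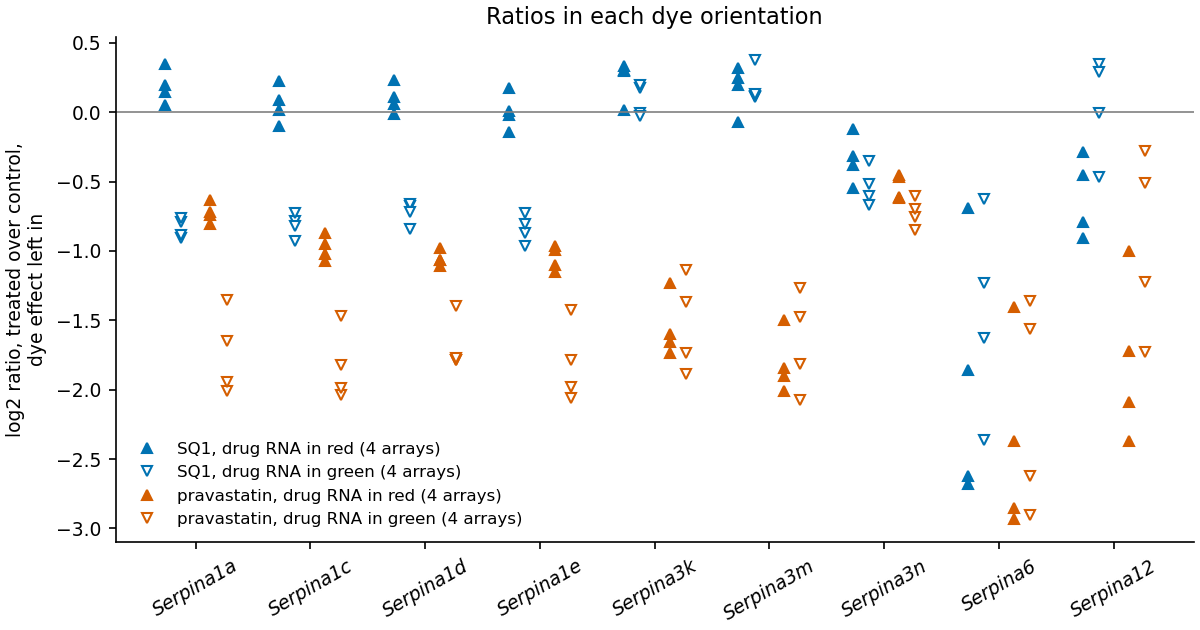
Log2 ratio of treated over control with the dye effect left in, 4 arrays per drug and dye orientation; filled triangles mark drug RNA in red and open triangles drug RNA in green. At Serpina1a the SQ1 arrays average 0.19 in one orientation and -0.84 in the other, while at Serpina3k and Serpina3m the orientations overlap.

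Control levels of the antitrypsin genes (log2 intensity per channel) are given for the 16 control channels, and their ranges were wider than those of 69.7 to 83.7% of genes tested. The channels lay between 18.08 and 18.73 for Serpina1a, 18.08 and 18.71 for Serpina1c, 17.71 and 18.53 for Serpina1d, and 18.09 and 18.71 for Serpina1e. They were higher on the pravastatin arrays than on the SQ1 arrays, by mean 18.66 against 18.32 for Serpina1a, although the cultures carry the same numbers. A channel level is set after scaling on both channels of an array, so that it also moves with the treated RNA beside it. Levels also keep the dye effect. On the SQ1 arrays the Serpina1a controls lay at 18.08 to 18.23 in green (replicates 1 to 4) and 18.46 to 18.57 in red (5 to 8). On the pravastatin arrays they lay at 18.57 to 18.66 and 18.67 to 18.73. For these probes the ratios, and not the levels, are compared between drugs.

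Serpina3k and Serpina3m, antichymotrypsin-like serpins of liver of which Serpina3k is known as a kallikrein-binding protein, showed the widest gap between the drugs. Serpina3k lay between -1.85 and -1.10 on the pravastatin arrays (median -1.66) and between -0.02 and 0.30 on the SQ1 arrays (median 0.22). Serpina3m lay between -2.11 and -1.31 with pravastatin (median -1.83) and between -0.03 and 0.36 with SQ1 (median 0.17). The pravastatin arrays were all far below the SQ1 arrays, 7 of 8 of which lay above 0 for each gene with the dye effect removed. Pravastatin lowered Serpina3k 2.91-fold (log2 ratio -1.54 ± 0.07, adjusted p = 2.38e-11) and Serpina3m 3.33-fold (-1.74 ± 0.07, adjusted p = 1.03e-11). With SQ1 the log2 ratio was 0.16 ± 0.07 for Serpina3k (95% interval 0.01 to 0.31, adjusted p = 0.102) and 0.18 ± 0.07 for Serpina3m (0.02 to 0.34, adjusted p = 0.0789). Neither was called, but both were called higher in fits with slide terms within each drug (adjusted p of 0.0275 and 0.0208), with array weights (0.0345 and 0.0259) and on the SQ1 arrays alone (0.0221 and 0.0209). The dye effect at these probes was small, 0.03 for Serpina3k and -0.04 for Serpina3m. In the control channels Serpina3k ranged from 16.58 to 17.47 and Serpina3m from 15.58 to 16.74.

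Serpina3n, an acute phase serpin that inhibits granzyme B, had the smallest difference between the drugs of the 9 genes. Its ratios lay between -0.64 and -0.21 on the SQ1 arrays (median -0.45) and between -0.75 and -0.51 on the pravastatin arrays (median -0.63). The ranges overlap, and all arrays of both drugs were below 0. SQ1 left Serpina3n at 73.8% of the control level (log2 ratio -0.44 ± 0.04, adjusted p = 1.58e-06) and pravastatin at 64.6% (-0.63 ± 0.04, adjusted p = 1.98e-09). The control level ran from 11.66 to 12.49 over the 16 channels.

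Serpina6 encodes corticosteroid-binding globulin, the plasma carrier of glucocorticoids, and had the lowest fitted ratio of the 9 genes with each drug. On the SQ1 arrays its ratio lay between -2.56 and -0.50 with a median of -1.74, and on the pravastatin arrays between -3.09 and -1.21 with a median of -2.42. All 16 arrays were below 0 and the drugs overlap widely. SQ1 lowered Serpina6 3.28-fold (log2 ratio -1.71 ± 0.24, adjusted p = 5.12e-05) and pravastatin 4.75-fold (-2.25 ± 0.24, adjusted p = 3.74e-07). The second probe of Serpina6 gave -1.38 ± 0.23 and -1.73 ± 0.23.

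The untreated cultures themselves differed in Serpina6 by more than most genes did. The control level was 10.89 to 11.27 in cultures 1, 2, 5 and 6, lay at 10.11 and 10.09 in culture 3 (SQ1 and pravastatin array), and was 8.56 to 9.04 in cultures 4, 7 and 8. The range over all control channels, 2.70 on the log2 scale, was wider than that of 99.8% of genes tested. Control channels of the same number, which also shared a dye, differed between the arrays of the drugs by at most 0.12. The treated levels were closer together, 7.75 to 9.30 with SQ1 and 7.22 to 8.30 with pravastatin. Cultures 1, 2, 5 and 6, with the highest control levels, had the 4 lowest ratios with each drug; a ratio holds the control level in it, so the pair is not independent.

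Cultures 1, 2, 5 and 6 of each drug also shared a slide, and cultures 3, 4, 7 and 8 another, so slide and culture cannot be told apart. For pravastatin the slide of cultures 1, 2, 5 and 6 was also scanned on another day than all other slides, so that scan day cannot be told apart from them either. With SQ1 the log2 ratio of Serpina6 was -2.32 ± 0.17 on the slide of cultures 1, 2, 5 and 6 and -1.10 ± 0.17 on the other (adjusted p of the difference 0.0062), and with pravastatin it was -2.83 ± 0.17 and -1.67 ± 0.17 (adjusted p = 0.0039). Serpina6 was called lower on each slide. The markers of Kupffer cells and leukocytes split the control cultures in the same way: the mean log2 level of the 9 genes was 10.68 to 10.84 in cultures 1, 2, 5 and 6 and 9.82 to 10.25 in cultures 3, 4, 7 and 8. The mean of the 8 hepatocyte markers was 14.99 to 15.40 and 14.50 to 15.02. The part of either in the Serpina6 result was not tested.

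**Figure D3:**
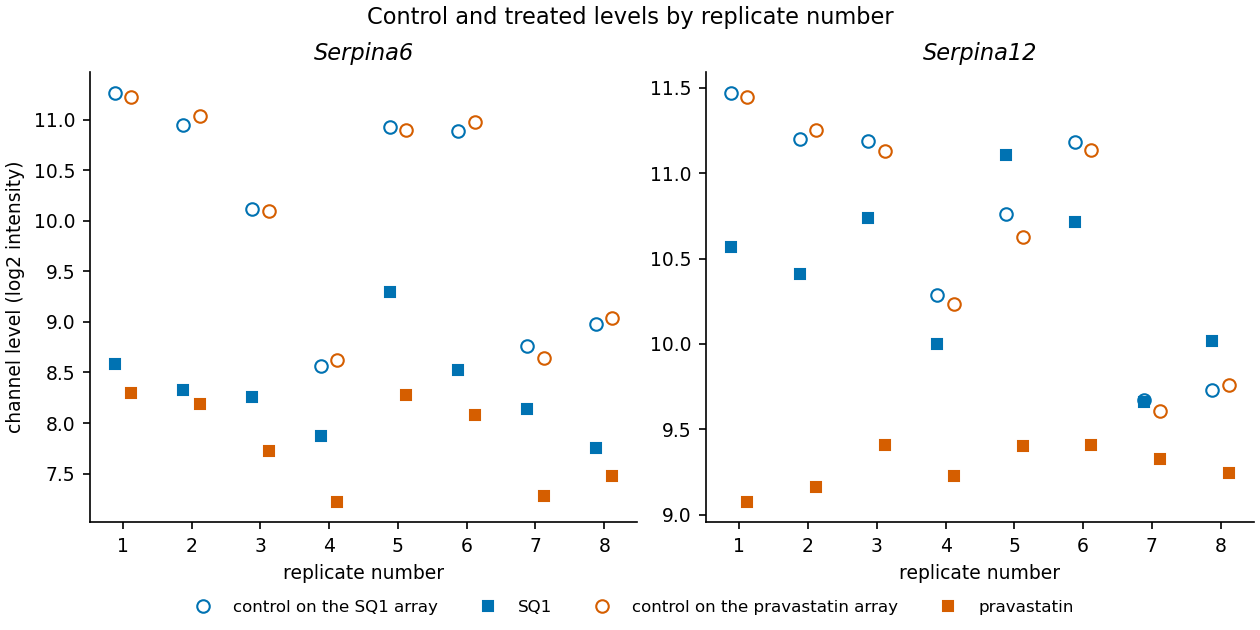
Channel level (log2 intensity) of Serpina6 and Serpina12 by replicate number; open circles are untreated controls on the SQ1 arrays (blue) and the pravastatin arrays (orange), and filled squares the treated RNA of the same array. Controls of the same number, which also share a dye, lie within 0.12 of each other for Serpina6 and 0.13 for Serpina12. Controls of different numbers span 2.70 and 1.86.

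Serpina12 encodes vaspin, an adipokine first described in visceral fat. On the SQ1 arrays its ratio lay between -0.84 and 0.09 with a median of -0.24, and on the pravastatin arrays between -2.11 and -0.63 with a median of -1.47. The drugs overlap between single arrays. Pravastatin lowered it 2.58-fold (log2 ratio -1.37 ± 0.15, adjusted p = 7.59e-07), and with SQ1 the log2 ratio was -0.28 ± 0.15 (95% interval -0.61 to 0.04, adjusted p = 0.177), which was called only with slide terms within each drug (adjusted p = 0.0189). As for Serpina6, the control level followed the culture, from 9.61 to 11.47. The pravastatin-treated channels were all between 9.08 and 9.41, a range of 0.33, and the SQ1-treated channels spanned 9.66 to 11.10. The pravastatin log2 ratio was -1.85 ± 0.13 on the slide of cultures 1, 2, 5 and 6 and -0.88 ± 0.13 on the other (adjusted p of the difference 0.0015). With SQ1 the log2 ratio was -0.45 ± 0.13 (adjusted p = 0.0112) on the slide of these cultures and -0.11 ± 0.13 (adjusted p = 0.545) on the other. The difference between the SQ1 slides was not called (adjusted p = 0.237). Serpina12 had a dye effect of -0.38, opposite in sign to that of the antitrypsin genes.

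Of the other 7 measured genes, Serpina3k (-1.74 and -1.35, adjusted p of the difference 0.0176) and Serpina3m (-1.94 and -1.54, adjusted p = 0.0215) also differed between the pravastatin slides. The difference between slides was not called for the antitrypsin genes or Serpina3n with either drug. Of all genes tested, 12.3% differed between the SQ1 slides and 21.8% between the pravastatin slides.

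The difference between the drugs, SQ1 minus pravastatin, was called for 8 of the 9 genes, all higher with SQ1, against 29.3% of all genes called higher and 23.8% called lower. It was largest for Serpina3m (1.91 ± 0.11, adjusted p = 1.4e-09) and Serpina3k (1.70 ± 0.10, adjusted p = 2.74e-09). The 4 antitrypsin genes differed by 0.91 to 1.06, Serpina12 by 1.08 ± 0.22 (adjusted p = 0.000568) and Serpina3n by 0.19 ± 0.06 (adjusted p = 0.0138). For Serpina6 the difference was 0.54 ± 0.34 (95% interval -0.18 to 1.26, adjusted p = 0.198) and was not called. In each of the 8 pairs of arrays with the same number, pravastatin gave the lower ratio of Serpina6. With the replicate number as a block the Serpina6 difference was called, at an adjusted p of 0.0313 with a random block and 5.44e-05 with a fixed block. That block takes the numbers to pair the arrays, which the main fit does not do. For Serpina6 itself the deviations of same-numbered arrays correlated by 0.94. Over all genes, for 5 of the 8 numbers the pravastatin array of another number correlated more strongly. The small Serpina3n difference was lost in 5 alternatives, among them the Agilent processed signals (0.16, adjusted p = 0.109) and slide as a random block (adjusted p = 0.102). The unit of the SQ1 dose being uncertain, these differences are between the cultures as treated and not between drugs at matched strength.

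The wider Serpina cluster did not move as 1 block. For this and the lists below, the shares over all genes were 35.8% lower and 30.9% higher with pravastatin, and 16.5% and 15.7% with SQ1. With median centring 2071 of 15053 genes were called with SQ1, 1473 of them higher, and 7171 with pravastatin, 4374 of them higher. List counts with median centring are to be read against these numbers, and not against the shares, which are of the main fit. Of 16 other clade A genes listed, 14 had a probe and 13 were tested; with pravastatin 7 were called lower and none higher, and with SQ1 3 were lower and 2 higher. Their median was -0.01 with SQ1. With pravastatin it was -0.15, but -0.66 with the Agilent processed signals and -0.62 with the submitters' table, while the count of 7 lower was the same. Serpina10, the protein Z-dependent protease inhibitor, had log2 ratios of -1.38 with pravastatin and -0.50 with SQ1, and Serpina11, at the edge of the antitrypsin copies, -1.55 and -0.90, all called. Serpina5, which encodes the protein C inhibitor, rose with SQ1 (0.96, adjusted p = 8.22e-09) and was at -0.05 with pravastatin (adjusted p = 0.501). Its mean control level was 9.33, and the other listed genes not called with pravastatin were dimmer, at 6.45 to 7.92.

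Among the Serpina3 copies, Serpina3c followed Serpina3k and Serpina3m: -1.65 with pravastatin, called, and 0.14 with SQ1, not called (adjusted p = 0.158). Serpina3h, named after its values were seen, was at -0.87 with pravastatin and 0.14 with SQ1 (adjusted p = 0.0391, and 0.0506 with the Agilent processed signals). In contrast Serpina3b and Serpina3f, in the same stretch of the cluster and also named after their values were seen, were at -0.04 and -0.05 with pravastatin and were not called. Their probes were dim, with mean control levels of 7.87 and 7.92, against 12.51 for Serpina3c. They were brighter than only 32.7 and 33.1% of probes tested, and how far ratios are compressed there was not tested. The other probe of Serpina3f, tested by itself, was at 0.32 with pravastatin and was called higher. That probe was dimmer still, with a mean control level of 6.86, brighter than only 19.6% of probes tested. These relatives may share a probe with Serpina3k or Serpina3m, which was not tested.

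**Figure D4:**
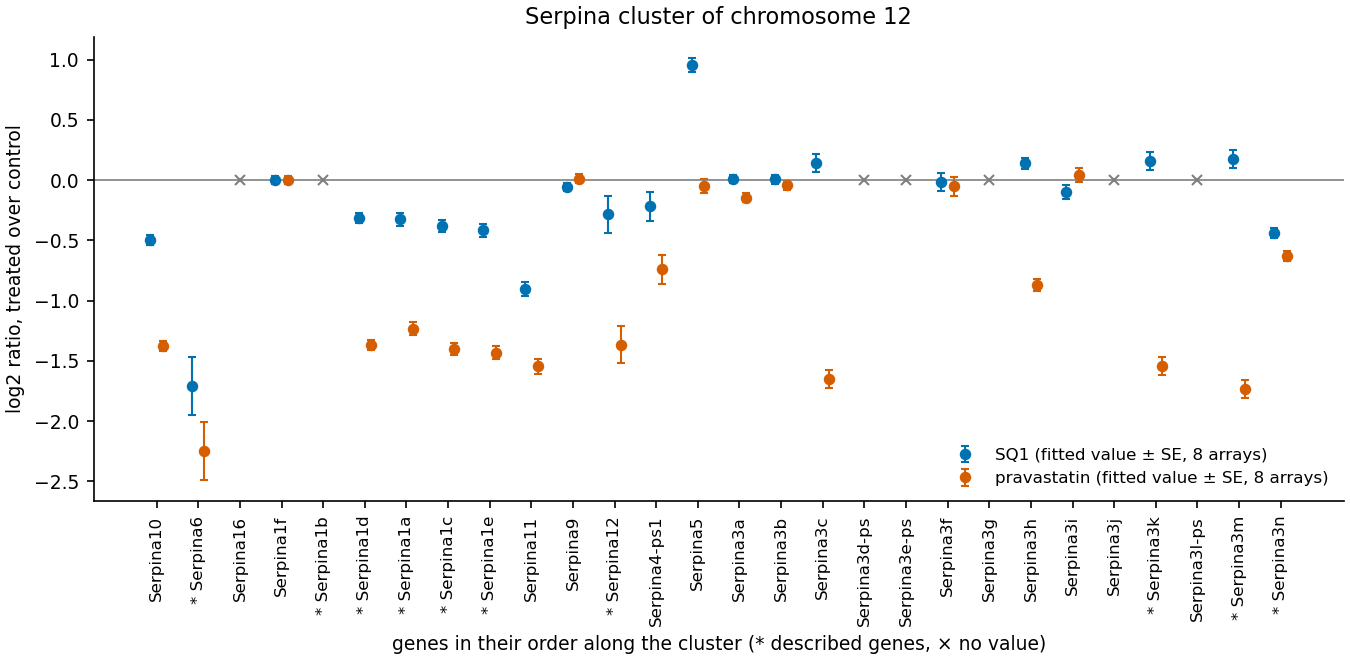
Fitted log2 ratio ± SE (8 arrays per drug) of the Serpina genes of chromosome 12 in their order along the cluster in RefSeq; asterisks mark the described genes and crosses genes without a value. Serpina10 and Serpina11 lie with the antitrypsin genes below 0, and Serpina5 is at 0.96 with SQ1. Serpina3b and Serpina3f, both read by dim probes, are near 0 between lowered copies.

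The listed serpins of other clades include secreted plasma inhibitors and also clade B serpins, which act inside cells. Of 13 tested, pravastatin lowered 8 and raised 3 (median -0.40), against 35.8% and 30.9% of all genes. Among the 8 lowered, 3 were the clade B genes Serpinb1a, Serpinb8 and Serpinb9, named after their values were seen. SQ1 lowered 7 and raised 1 of the 13 (median -0.17), against 16.5% and 15.7% of all genes, or 2 and 1 with median centring. Serpinc1 (antithrombin) was at -3.18 with pravastatin and -0.79 with SQ1, Serpind1 (heparin cofactor II) at -2.03 with pravastatin, and Serpinf2 (antiplasmin) at -1.21. Serpine2, protease nexin, rose with both, by 1.14 with pravastatin and 0.75 with SQ1.

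Of 11 proteases listed as ones that clade A serpins inhibit or bind, 8 were tested. Mmp12 is on this list but is a metalloprotease and no target of these inhibitors. With each drug 4 of the 8 were lower and 1 higher, and with SQ1 2 were lower under median centring. Of all genes, 35.8% were lower and 30.9% higher with pravastatin, and 16.5% and 15.7% with SQ1. The median of the 8 proteases was -0.09 with SQ1 and -0.12 with pravastatin, or -0.46 with pravastatin from the Agilent processed signals and -0.43 from the submitters' table. Some were near background, and are named here for that. Control channels lay at 6.70 to 7.33 for Prtn3, 6.24 to 7.02 for Ctsg and 6.26 to 7.21 for Klk1. Ctsg was well above background in 12 of 16 control channels and Klk1 in 8. Klkb1, plasma prekallikrein made by hepatocytes, was at -3.25 with pravastatin, and Mmp12, macrophage elastase, at -1.24 with SQ1 and -0.64 with pravastatin. Neutrophil elastase (Elane) was not among the genes tested.

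Genes that fold, export or clear serpins fell with pravastatin in 10 of 11 cases (median -0.53), against 35.8% of all genes. With SQ1 7 of these 11 fell (median -0.19), against 16.5% of all genes, or 1 of 11 with median centring. They include the chaperones Calr (-1.02 with pravastatin) and Hspa5 (-0.89 with pravastatin, -0.64 with SQ1) and the cargo receptor pair Lman1 (-0.83) and Mcfd2 (-0.97), which carries antitrypsin out of the endoplasmic reticulum.

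Of 19 hepatocyte and cytokine regulators, pravastatin lowered 12 and raised 2, against 35.8% and 30.9% of all genes, or 7 and 4 with median centring. Hnf4a, a nuclear receptor that drives hepatocyte genes, was at -1.30 with pravastatin and -0.08 with SQ1 (adjusted p = 0.577). Prlr was at -1.59, Ghr at -1.27 and Foxa3 at -1.14 with pravastatin. With SQ1, 3 regulators were higher and 5 lower, against 15.7% and 16.5% of all genes, or 1 and 1 with median centring.

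Beside Serpina6, the 10 listed genes of glucocorticoid response split. With pravastatin 5 were lower and 3 higher, against 35.8% and 30.9% of all genes. With SQ1 5 were higher and 3 lower, against 15.7% and 16.5% of all genes, or 5 and 0 with median centring. Pck1 was at -3.10, Tat at -1.97 and Hsd11b1, which regenerates active glucocorticoid, at -1.67 with pravastatin, while Sgk1 rose by 0.63 with pravastatin and 0.58 with SQ1.

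The Serpina genes did not stand alone among secreted proteins. All 26 other hepatocyte plasma proteins listed were called lower with pravastatin (23 with median centring), with a median of -1.21, against 35.8% of all genes. With SQ1 18 of the 26 were lower, with a median of -0.41, against 16.5% of all genes. With median centring 10 were lower with SQ1, where 2071 of 15053 genes were called, 1473 of them higher. Plg (-2.73 with pravastatin), Fgg (-2.67), Fga (-2.08) and Apoa2 (-2.04) had the largest ratios. Of the 8 hepatocyte markers, 8 were lower with pravastatin (median -1.56, from -2.73 to -0.32) and 3 with SQ1 (median -0.15), or 0 with SQ1 under median centring. The lists overlap, so their counts are not independent. Alb, Ttr and Apoa1, named here for that, are in both the plasma protein and the marker list. The markers Hnf4a and Tat are also in the lists of regulators and of glucocorticoid response, respectively. In cell cultures measured in bulk, fewer hepatocytes and less RNA per hepatocyte cannot be told apart.

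Some markers of other cells were called too, to be read beside the shares over all genes. In the main fit these shares were 35.8% lower and 30.9% higher with pravastatin, and 16.5% and 15.7% with SQ1. Counts with median centring are not to be read against them. Of 9 Kupffer cell and leukocyte markers 8 were lower with pravastatin and 5 with SQ1, or 7 and 3 with median centring; their mean log2 level was 9.82 to 10.84 in controls, 9.71 to 10.61 with SQ1 and 9.41 to 10.30 with pravastatin. Of 8 stellate cell and fibroblast markers 2 were higher with SQ1 and 2 lower with pravastatin (with median centring, 0 lower and 1 higher with pravastatin), and the mean level was 11.39 to 11.93 in controls, 11.46 to 11.97 with SQ1 and 11.33 to 11.84 with pravastatin. Of 7 endothelial markers 3 were higher with SQ1, while with pravastatin 4 were lower and 2 higher, or 2 and 2 with median centring; the mean level was 10.18 to 10.61 in controls, 10.37 to 10.62 with SQ1 and 9.92 to 10.52 with pravastatin. Of 6 cholangiocyte markers 3 were lower with SQ1, while with pravastatin 3 were lower and 1 higher; the mean level was 9.80 to 10.45 in controls, 9.80 to 10.17 with SQ1 and 9.88 to 10.09 with pravastatin. The part of these cells in the Serpina results was not tested. All hepatocyte, Kupffer cell and endothelial markers were well above background in all 16 control channels, as were all 9 Serpina genes.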

How the data were processed

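RNA of 16 cultures treated with SQ1 or pravastatin was hybridized with control RNA, 8 arrays per drug. The deposited scanner files give spot and background intensity per channel, unnormalized, processed signals that Agilent Feature Extraction 11.0.1.1 background-subtracted and dye-normalized, and a log10 ratio, per the file headers. Values of the deposited series table are on the log2 scale, with centring unstated; over all probes they correlated with the treated over control ratio of the scanner files by 0.743 to 0.999 per array, and column medians lay between -0.07 and 0.14. Median intensities were used, in R 4.3.3 with limma 3.58.1: normexp (offset 50), loess within arrays, and spots of a probe averaged. RefSeq accessions named 27234 of 39429 probes, for 20659 genes. Testing needed a signal well above background in 4 or more treated channels of either drug, or 8 or more control channels, and ratios from 7 or more arrays per drug. The probe with the highest mean intensity stood for its gene. Levels were scaled between arrays by Aquantile.

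All 16 arrays entered 1 fit (lmFit, eBayes) with a coefficient per drug, signed by dye orientation, and a dye constant, which left 13 residual degrees of freedom. Tests were two-sided with Benjamini-Hochberg adjustment over 15053 genes. Errors after ± are standard errors. P-values measure the spread between arrays, and their number limits the precision. Same-numbered arrays of the drugs deviated together (correlation 0.22 to 0.72 in each of 8 pairs, although for 5 numbers another number correlated more). The main fit does not pair the arrays. Fits with the replicate number as a block do, and their values are given where a call changes. Correlations within a block were 0.27 for slide, 0.23 for scan day and 0.47 for replicate number. The genes described and all lists were chosen with earlier results of these data known. All 10 genes are named. Of each list at most the 4 with the largest log2 ratio among those called are named, and exceptions are stated. The array was designed on another build than RefSeq's, so probes have no coordinates.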

Additional observations from a re-analysis of the deposited data

Results flagged for a closer look

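In 2 of the 18 sets of 8 arrays looked at (9 genes, 2 drugs), 1 array stood apart from the rest by Dixon's criterion, which chance does in about 1 of 20 sets. Both concern pravastatin replicate 7 and antitrypsin probes, which may read the same transcripts. Serpina1d was at -1.03 there, the next array at -1.34, and the mean without it is -1.42. Serpina1e was at -1.03, the next array at -1.37, and the mean without it is -1.49. Replicate 7 also gave the ratios nearest to 0 for Serpina1a (-0.84) and Serpina1c (-1.04).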

How the results depend on the processing

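For pravastatin, all 207 values tried (9 genes, 23 alternatives) kept direction and call. For SQ1, 193 of 207 did, 7 lost their call and 7 gained it. For the difference, 271 of 279 over 31 alternatives did, 5 lost it and 3 gained it; no value reversed. The SQ1 count of 6 called genes fell to 2 with median centring and 3 without a dye constant. The replicate block left 6 and 9 genes called for SQ1 and pravastatin and brought the difference from 8 to 9, through Serpina6, and changed no other call. Leaving out each replicate in turn gave 6 to 6, 9 to 9 and 8 to 8. The Serpina3n difference was lost also with median centring (adjusted p = 0.392), the submitters' table (0.0869) and a threshold of 0.01, and that of Serpina6 was called with slide terms (0.0144). Over all genes, median centring gave 2071 SQ1 calls, 71.1% higher, against 4860 with 48.7% higher, and 61.0% against 46.3% higher for pravastatin. For the difference, it gave 3697 calls against 7996, and the share higher was 44.7% with the submitters' table against 55.1%. Other SQ1 counts were 2543 under a random slide block, 2239 under a random block for scan day, 3121 at a threshold of 0.01 and 7496 with every probe tested by itself; pravastatin went from 10041 to 16476 and the difference to 12582. Ratios of the brightest and dimmest probes are the least certain.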
